A study of Mus musculus with 5 samples.

Results

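TCF1 regions that lay outside open chromatin were examined in double positive (DP) thymocytes, the immature T cells of the thymus that carry CD4 and CD8 together. A TCF1 region was taken as a member when it was on chromosomes 1 to 19 and shared no base with a DNaseI region, and 518 of the 3511 TCF1 regions on these chromosomes met that rule (14.8%, 95% Wilson interval 13.6 to 16.0%). The other 2993 TCF1 regions shared at least 1 bp with a DNaseI region and are called inside regions. All cells came from C57/BL6 mice 4 to 6 weeks old, and the labels name no treatment and no genetic change. The 3 region lists compared are DNase I hypersensitivity (48320 regions), HEB chromatin immunoprecipitation (4930 regions) and TCF1 chromatin immunoprecipitation (3546 regions), each from 1 sample sequenced on a SOLiD instrument, and the H3K9me3 and H3K27ac samples of the series were not analysed here. With 1 sample per assay there is no replicate error and no p-value was computed. The intervals given cover counting error over regions only, and the labelled cell type could not be checked against marker genes because the lists hold no expression.

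TCF1, encoded by Tcf7, is a DNA-binding protein of the HMG-box family that is needed for the T cell lineage and can act with beta-catenin or with corepressors of the Groucho family. HMG-box proteins bind the minor groove and bend DNA, and TCF1 is known for binding some sites in closed chromatin. HEB, encoded by Tcf12, is an E protein of the basic helix-loop-helix family that binds E-box sequences and is needed for thymocyte development. DNase I cuts preferentially where DNA is not wrapped in nucleosomes, so a DNaseI region marks accessible chromatin such as promoters and enhancers.

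The 518 outside regions did not form 1 distance class. Their gap to the nearest DNaseI region, counted as the bases between the region edges, ran from 0 to 2730460 bp with a median of 4554 bp (95% interval 2884 to 6652 bp) and quartiles of 418 and 27107 bp. Close to open chromatin lay 167 of them, at up to 1 kb (32.2%, 28.4 to 36.4%), and 65 of these were within 100 bp. A gap of 1 to 10 kb was found for 147 regions (28.4%), one of 10 to 100 kb for 141 (27.2%), and one of over 100 kb for 63 (12.2%, 9.62 to 15.3%). Distance to DNaseI is the measure that chose the regions, so these values are a description.

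**Figure D1:**
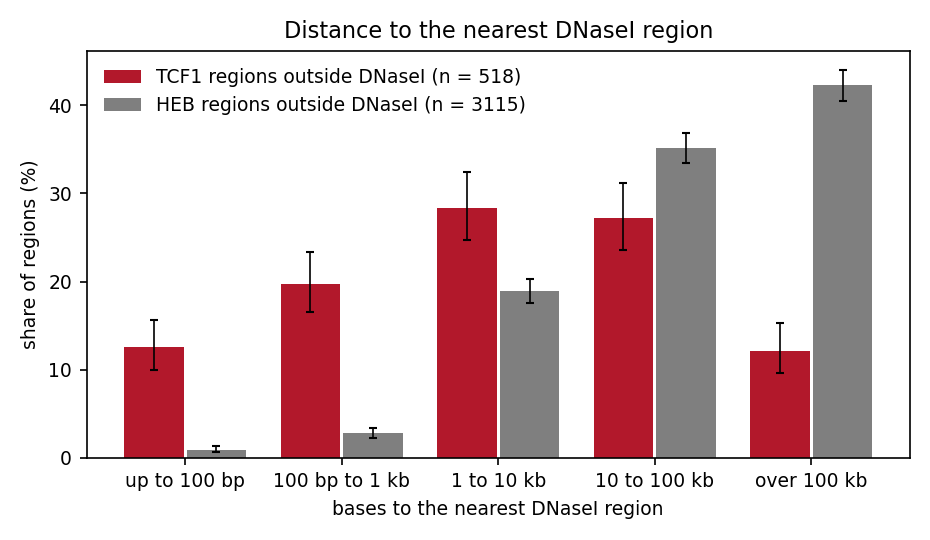
Share of regions outside DNaseI regions (y axis, %) by the bases to the nearest DNaseI region (x axis), for 518 TCF1 regions and 3115 HEB regions on chromosomes 1 to 19. Bars are shares and lines 95% Wilson intervals. TCF1 regions were spread over all 5 classes, whereas 42.2% of HEB regions were in the class over 100 kb.

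HEB regions outside open chromatin, the list most like this one, lay farther from it. On the same chromosomes 3115 HEB regions shared no base with a DNaseI region, and their median gap was 58895 bp (51963 to 67336 bp). Of these HEB regions 3.72% (3.11 to 4.45%) were up to 1 kb from a DNaseI region and 42.2% (40.5 to 44.0%) over 100 kb from one. The corresponding TCF1 shares were 32.2% and 12.2%. These values stand side by side without a test, since both sets were chosen by the same DNaseI list.

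The edge of the rule cut through a continuous range. The closest member, on chromosome 1 from 135956378 to 135956560 (TCF1 score 9), touched a DNaseI region with a gap of 0 bp, and the next were on chromosome 1 from 46951347 to 46951529 and on chromosome 15 from 5058399 to 5058581, each with a gap of 4 bp. A gap of 5 bp followed on chromosome 15 from 99582837 to 99583019, and one of 6 bp on chromosome 11 from 101309216 to 101309398. On the other side of the rule, the region on chromosome 9 from 44199333 to 44199515 shared 1 bp with a DNaseI region. Those on chromosome 3 from 84470037 to 84470219 and chromosome 10 from 117494638 to 117494820 shared 2 and 3 bp, and those on chromosome 19 from 32649503 to 32649685 and chromosome 6 from 71266618 to 71266800 shared 5 and 6 bp. TCF1 scores at this edge ran from 8 to 18, so neither side held the top of the score range. Among the inside regions 2392 of 2993 (79.9%) were wholly covered by DNaseI regions and 601 (20.1%) only in part.

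The DNaseI regions beside the close members had widths and scores near those of the whole DNaseI list. The 167 members within 1 kb had 164 different DNaseI regions as their nearest, with a median width of 289 bp and a median DNaseI score of 15.5. Over all DNaseI regions on chromosomes 1 to 19 these medians were 315 bp and 16, and over the 2930 DNaseI regions that held an inside TCF1 region they were 740 bp and 56. Of the 164 neighbouring DNaseI regions 9 carried a TCF1 region of their own (5.49%, 2.91 to 10.1%), against 6.12% of all DNaseI regions on these chromosomes. A HEB region was carried by 8 of the 164 (4.88%, 2.49 to 9.33%), against 3.46% of all. Both shares were near the background of the DNaseI list. DNaseI regions stood within 1 kb on both sides of 34 members, or 20.4% (14.9 to 27.1%) of the close ones.

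Within 100 kb on either side, outside regions had a median of 7 DNaseI regions (quartiles 2 and 15, highest 70) and inside regions a median of 14 (quartiles 8 and 25, highest 71). These counts come from the list that chose the members and are a description: inside regions have at least 1 by definition, and the 63 members over 100 kb from open chromatin have none.

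HEB binding was measured in a separate library and was not used by the rule. The rule still limits which HEB regions a member can meet. A HEB region of 201 bp that overlaps a DNaseI region cannot reach a member more than 201 bp from open chromatin. Comparisons with inside regions are therefore not independent of the rule. Only 33 of the 518 outside regions met a HEB region, by at least 1 bp (6.37%, 4.57 to 8.81%). Over all TCF1 regions on chromosomes 1 to 19 the share was 16.2%, and among inside regions it was 537 of 2993 (17.9%, 16.6 to 19.4%). The difference of outside minus inside was -11.6 percentage points, with a 95% Newcombe interval of -13.9 to -8.79 points that does not include 0. A HEB region within 10 kb, overlaps included, was found for 86 outside regions (16.6%) and 920 inside regions (30.7%), against 28.7% of all, a difference of -14.1 points (-17.5 to -10.3). Without the overlapping pairs the shares were 10.2% and 12.8%, and the interval of their difference included 0 (-2.56 points, -5.20 to 0.56).

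Within the group, the regions that met HEB were mostly those far from open chromatin. Among the 167 members up to 1 kb from a DNaseI region 1 met HEB (0.599%, 0.106 to 3.31%), and among the 204 members over 10 kb away 28 did (13.7%, 9.67 to 19.1%). The difference of near minus far was -13.1 points (-18.5 to -8.25). For a HEB region within 500 bp it was -12.9 points (-18.5 to -7.53), but no difference was resolved at 10 kb. A HEB region within 10 kb, overlaps included, was found for 16.8% of near and 16.7% of far members (0.10 points, -7.43 to 7.92). Without the overlapping pairs the shares were 16.2% and 2.94% (13.2 points, 7.38 to 19.8). HEB regions on DNaseI regions can hardly fall within 10 kb of a member over 10 kb from open chromatin. The shares within 10 kb therefore partly follow from the classes and are a description. The share that met HEB was 2.72% (1.06 to 6.79%) at 1 to 10 kb and 6.38% (3.39 to 11.7%) at 10 to 100 kb. It was 30.2% (20.2 to 42.4%) over 100 kb, where 19 of 63 members met HEB. In that last class, split off after the values were seen, the share was 12.2 points (2.20 to 24.5) above that of inside regions. For a HEB region within 10 kb, overlaps included, that difference was 4.18 points, with an interval that included 0 (-6.54 to 16.6), and it is likewise a description. None of the 65 members within 100 bp of a DNaseI region met HEB, with a 95% Wilson upper bound of 5.58%. The single close member that did was on chromosome 2 from 181027465 to 181027647, 183 bp from a DNaseI region, with a TCF1 score of 8 and a HEB score of 11.

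**Figure D2:**
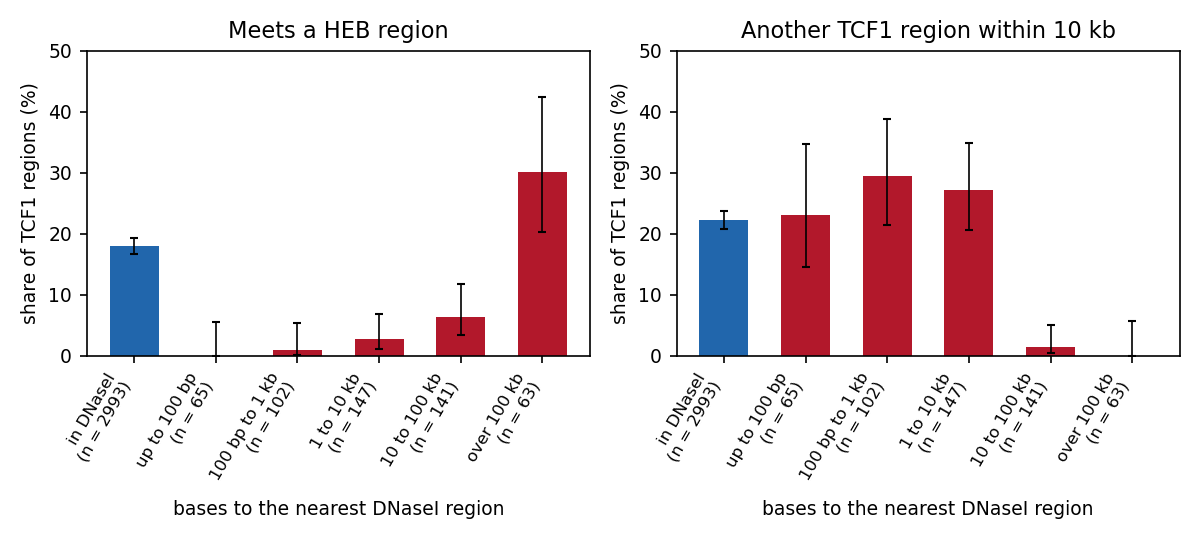
Share of TCF1 regions (y axes, %) that met a HEB region (left) or had another TCF1 region within 10 kb (right), for inside regions (blue) and for outside regions by the bases to the nearest DNaseI region (red). Lines are 95% Wilson intervals. The HEB share was highest over 100 kb from open chromatin, at 30.2%. Inside TCF1 regions sit on DNaseI regions, so the low shares on the right over 10 kb largely follow from the classes.

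Seen from the HEB list, the meeting share differed less with distance. Of the 3115 HEB regions outside open chromatin 33 met a TCF1 region (1.06%). This share was 0.862% (0.152 to 4.72%) up to 1 kb from a DNaseI region, 0.679% (0.264 to 1.73%) at 1 to 10 kb, 0.823% (0.433 to 1.56%) at 10 to 100 kb and 1.44% (0.926 to 2.24%) over 100 kb, with intervals that overlapped throughout. The classes were filled differently by each list: over 100 kb from open chromatin lay 1316 HEB regions and 63 TCF1 regions, and up to 1 kb from it 116 and 167.

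Where an outside region met HEB, the region centres lay close together. The distance between the TCF1 and HEB centres had a median of 9 bp (5 to 23 bp) and quartiles of 4 and 34 bp in the 33 outside pairs. In the 537 inside pairs the median was 44 bp (40 to 49 bp) and the quartiles were 21 and 83 bp. Centres within 10 bp of each other were found in 20 of the 33 outside pairs (60.6%, 43.7 to 75.3%) and in 68 of the 537 inside pairs (12.7%, 10.1 to 15.7%), against 15.4% of all such pairs. The difference was 47.9 points (30.7 to 62.9), and at 25 bp it was 39.0 points (21.5 to 52.4). Of the 19 pairs over 100 kb from a DNaseI region 14 had centres within 10 bp, with a median distance of 7 bp. The pair with the widest distance, 115 bp, was also in that class, on chromosome 5 from 46945917 to 46946099.

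**Figure D3:**
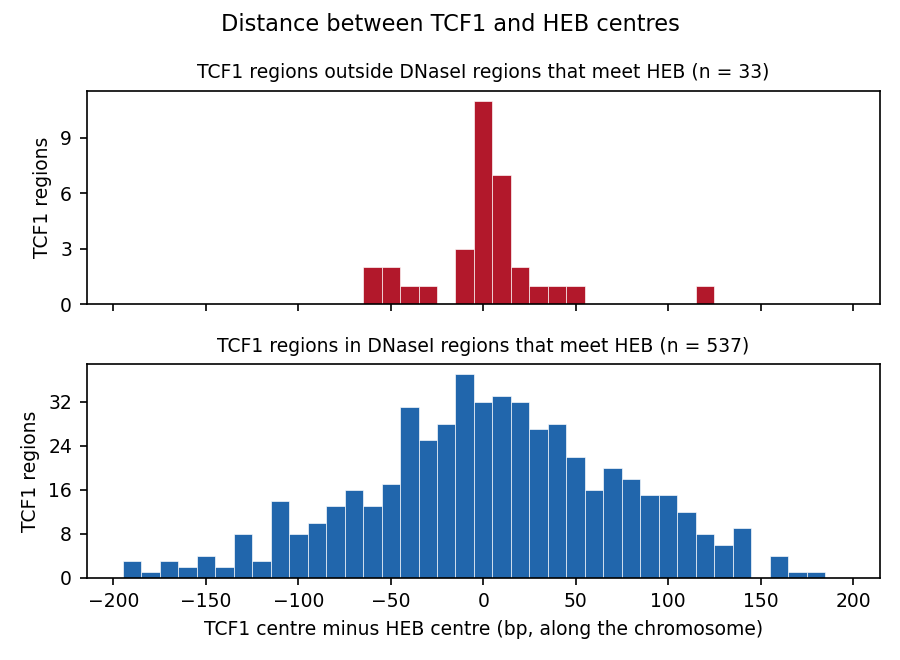
Number of TCF1 regions (y axes) by the TCF1 centre minus the HEB centre (x axis, bp along the chromosome, bins of 10 bp), for outside regions (top, n = 33) and inside regions (bottom, n = 537) that met HEB. The outside pairs gathered near 0, with a median distance of 9 bp, and the inside pairs were spread more widely, with a median of 44 bp.

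The HEB regions in these pairs had higher scores than other HEB regions outside open chromatin. The HEB score, a whole number set by the authors with no stated unit, had a median of 16 (quartiles 11 and 23, highest 37) in the 33 HEB regions met by an outside TCF1 region. In the other 3082 HEB regions outside DNaseI regions the median was 10 (quartiles 10 and 12, highest 70). A score above the HEB list's median of 11 was found in 24 of 33 (72.7%) and in 788 of 3082 (25.6%), against 26.1% of all HEB regions outside open chromatin, a difference of 47.2 points (30.1 to 59.5). HEB regions met by inside TCF1 regions had the same median of 16. No such difference was resolved in the TCF1 score: 10 of the 33 outside regions with HEB (30.3%) and 155 of the 485 without (32.0%) were above the TCF1 list's median of 11, with a difference of -1.66 points (-15.3 to 15.8).

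The 10 members that met the highest HEB scores are part of the 33 that met HEB. Of the 33, 28 were over 10 kb from open chromatin, 19 were over 100 kb away, and 20 had centres within 10 bp. All 10 were over 10 kb from open chromatin, 8 were over 100 kb away, and 9 had centres within 10 bp, and no difference from the 33 was tested. The first was on chromosome 19 from 39676515 to 39676697 (HEB score 37, TCF1 score 13, 629790 bp from a DNaseI region, centres 7 bp apart), with another on chromosome 12 from 60546645 to 60546827 (HEB score 37, TCF1 score 11, 225455 bp). Next came chromosome 9 from 90757573 to 90757755 (HEB score 36, TCF1 score 9, 602596 bp), chromosome 3 from 28780355 to 28780537 (HEB score 31, TCF1 score 13, 75887 bp) and chromosome 13 from 7953764 to 7953946 (HEB score 31, TCF1 score 12, 825882 bp). The other 5 were on chromosome 17 from 72801044 to 72801226 (HEB score 27), chromosome 2 from 66688747 to 66688929 (HEB score 27), chromosome 9 from 53853260 to 53853442 (HEB score 25), chromosome 8 from 49279654 to 49279836 (HEB score 23) and chromosome 18 (HEB score 22). Their TCF1 scores were low to middling, from 8 to 13, in a list that reaches 60.

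The 10 members farthest from open chromatin were 825882 to 2730460 bp away, and 5 of them met a HEB region with centres within 10 bp. For comparison, 6.37% of all members met HEB. Over 100 kb away 19 of 63 did, 14 of them with centres within 10 bp. No difference was tested on 10 regions. The farthest, on chromosome 1 from 26743247 to 26743429 (TCF1 score 10), had its nearest DNaseI region 2730460 bp away towards lower coordinates and a HEB region 102 bp from its edge. The next were on chromosome 19 from 50997668 to 50997850 (2114288 bp, HEB score 16) and on chromosome 1 from 143040359 to 143040541 (1689006 bp, HEB score 17), whose TCF1 and HEB centres were 10 and 1 bp apart. The member on chromosome 6 from 68390553 to 68390735 (907250 bp) had the highest TCF1 score of the 10, at 20, and met a HEB region of score 18. That on chromosome 13 from 7953764 to 7953946 was named above, and a further member that met HEB was on chromosome 18 (984289 bp, HEB score 12). The 4 others had no HEB region within 10 kb: chromosome 10 from 64683266 to 64683448 (1593763 bp), chromosome 9 from 27872752 to 27872934 (958870 bp), chromosome 7 from 14785035 to 14785217 (896378 bp) and chromosome 3 from 55463902 to 55464084 (850702 bp).

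TCF1 scores, which are the authors' and were compared within the TCF1 list only, were somewhat lower outside open chromatin. The 518 outside regions had a median score of 10 (quartiles 9 and 12, range 8 to 38) and the inside regions one of 11 (quartiles 9 and 14, range 7 to 60). A score above the list's median was found in 165 outside regions (31.9%, 28.0 to 36.0%) and 1221 inside regions (40.8%, 39.0 to 42.6%), against 39.5% of all. The difference was -8.94 points (-13.2 to -4.45). The share of TCF1 regions that lay outside was 16.8% (13.6 to 20.6%) at scores of 7 to 8, 19.2% (15.9 to 23.0%) at 10, 13.2% (10.8 to 16.2%) at 12 to 14 and 8.24% (5.56 to 12.1%) at 21 or more. Within the group, 32.3% (25.7 to 39.8%) of members up to 1 kb from open chromatin, 40.1% (32.6 to 48.2%) at 1 to 10 kb and 25.5% (20.0 to 31.9%) over 10 kb had an above-median score. The difference of the first and last of these classes was 6.85 points, with an interval that included 0 (-2.37 to 16.1).

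The 10 members with the highest TCF1 scores, 29 to 38, are given one by one. None of them met a HEB region, against 6.37% of all 518 members, and 9 lay within 10 kb of a DNaseI region, against 60.6% of all, and no difference from the group was tested on 10 regions. Of the 9, 7 lay at 1 to 10 kb. The first was on chromosome 1 from 173712731 to 173712913 (score 38, 5027 bp from a DNaseI region, 5251 bp from a HEB region). It was followed by chromosome 13 from 107846479 to 107846661 (35, 2884 bp) and chromosome 7 from 79385052 to 79385234 (35, 1351 bp). At a score of 32 were chromosome 13 from 91069569 to 91069751 (6324 bp) and from 48938986 to 48939168 (1584 bp), and chromosome 3 from 65454385 to 65454567 (85 bp). Chromosome 7 from 107033946 to 107034128 scored 31 (3500 bp) and chromosome 17 from 30172616 to 30172798 scored 30 (7812 bp). The last at 29 were chromosome 4 from 149958056 to 149958238, the only one over 10 kb away (14716 bp), and chromosome 3 from 96025448 to 96025630, which lay between DNaseI regions 7 and 78 bp from its edges.

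Other TCF1 regions were found less often near outside regions than near inside ones, and the lower share came from members over 10 kb from open chromatin. Another TCF1 region lay within 10 kb of 87 outside regions (16.8%, 13.8 to 20.3%) and of 666 inside regions (22.3%, 20.8 to 23.8%), against 21.4% of all, a difference of -5.46 points (-8.80 to -1.70). Among members up to 1 kb from open chromatin the share was 26.9% (20.8 to 34.1%), and at 1 to 10 kb it was 27.2% (20.7 to 34.9%). Both were above the inside share of 22.3%, with intervals that included it. Over 10 kb the share was 2 of 204 (0.980%). The low value over 10 kb largely follows from the class itself. Of the TCF1 regions on these chromosomes 85.2% lie in DNaseI regions. Such regions can hardly fall within 10 kb of a member that far from open chromatin. These shares, and the difference of -5.46 points, are therefore a description. The 2 far members with a neighbour were each other's, on chromosome 3 from 60276902 to 60277084 and from 60285767 to 60285949, 8682 bp apart. For 59 of the 87 members with a neighbour (67.8%, 57.4 to 76.7%) the nearest TCF1 region was an inside one, against 85.2% inside regions in the list. The list share is not a matched background, since neighbouring members are counted from both ends and the rule chose them. This too is a description. With members and neighbours both limited to TCF1 scores above the list's median, the outside and inside shares differed by -1.98 points and the interval included 0 (-6.23 to 3.86).

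Another outside region lay within 10 kb of 32 of the 518 members (6.18%, 4.41 to 8.59%). Of the 2993 inside regions 73 (2.44%, 1.94 to 3.06%) had an outside region that near, and both shares depend on the rule and are a description. Linking the outside regions over gaps of up to 10 kb gave 486 single regions, 13 pairs and 1 chain of 6. The chain was on chromosome 14 from 54799462 to 54825392, a span of 25931 bp that also held 17 DNaseI regions and 5 inside TCF1 regions, and no HEB region. The nearest HEB region was 21420 bp away from the last member. By the rule, members of the chain share no base with a DNaseI region, and 4 of them were up to 1 kb from one.

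**Figure D4:**
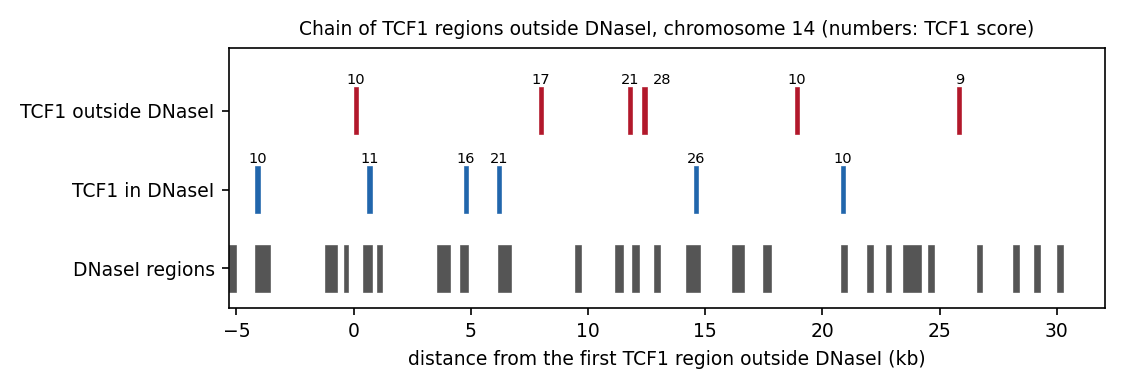
Map of the chain on chromosome 14, with DNaseI regions (grey), inside TCF1 regions (blue) and outside TCF1 regions (red) by distance from the first outside region (x axis, kb). Numbers are TCF1 scores. The 6 outside regions scored 9 to 28, and by the rule none shares a base with a DNaseI region.

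In order along the chromosome, the 6 members of the chain had TCF1 scores of 10, 17, 21, 28, 10 and 9. Those from 54811150 to 54811332 (score 21) and from 54811780 to 54811962 (score 28) were 447 bp apart and stood on either side of 1 DNaseI region of 301 bp, with gaps of 11 and 135 bp to it. The score of 28 was above those of all 5 inside regions in the span, which reached 26. The member from 54799462 to 54799644 (score 10) was 224 bp from a DNaseI region, and that from 54825210 to 54825392 (score 9) was 683 bp from one. The members from 54807371 to 54807553 (score 17) and from 54818280 to 54818462 (score 10) had gaps of 1197 and 1021 bp. All 6 had 70 DNaseI regions within 100 kb, the highest number among outside regions.

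The outside share differed between some chromosomes. It ran from 6.67% (4.01 to 10.9%, 14 of 210 regions) on chromosome 5 and 8.72% (6.02 to 12.5%, 26 of 298) on chromosome 11 to 25.3% (17.6 to 34.8%, 24 of 95) on chromosome 18. The intervals of these 3 chromosomes did not include the share of 14.8% over chromosomes 1 to 19, and those of the other 16 did. The intervals were not adjusted for the 19 chromosomes compared. Members over 100 kb from open chromatin were found on every one of the 19, and members that met HEB on all but chromosome 7.

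**Figure D5:**
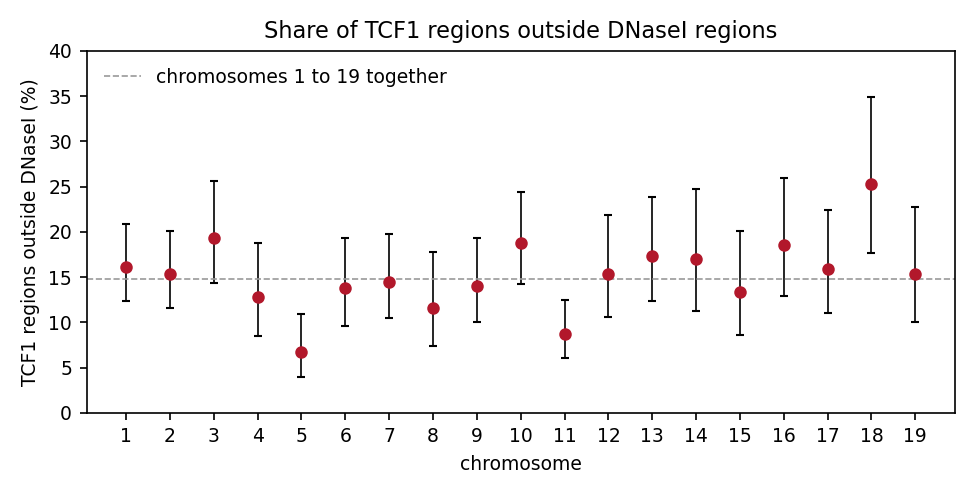
Share of TCF1 regions outside DNaseI regions (y axis, %) on each chromosome (x axis), with 95% Wilson intervals and the share of all 19 chromosomes as a dashed line. Chromosomes 5 and 11 lay below the line and chromosome 18 above it, with intervals that did not reach it.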

How the data were processed

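Region lists of DNaseI, HEB and TCF1 in DP thymocytes were used, 1 sample each, in mm9 coordinates counted from 1. The score deposited by the authors is a whole number per region whose unit is not stated. The submitters' processing notes name HOMER 6.1 and mm9, with no step given. For the aligner, caller, thresholds, controls and read totals the sources used here give nothing, so depth is unknown. Every TCF1 region is 183 bp and every HEB region 201 bp long, and DNaseI widths are 180 to 7846 bp. No list held duplicated or overlapping regions.

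Gaps are bases between region edges, and overlap is at least 1 bp. Shares carry 95% Wilson intervals, differences Newcombe intervals and medians order-statistic intervals. Regions are not replicates and may lie in 1 locus. The gap and interval code was tested on simulated lists. The named regions are the 10 highest TCF1 scores, the 10 farthest from DNaseI, the 10 highest HEB scores among members that met HEB, chains of 3 or more, and 5 on each side of the rule. Classes split at 100 bp and 100 kb, and the comparison of centres, were added after values were seen. The members and lists were chosen with earlier results of these data known. The gene table used here is of GRCm38.p6, another build, so genes, exons and sequence motifs were not analysed here. Analyses used Python 3.11.15, pandas 2.3.3, scipy 1.17.1 and statsmodels 0.14.6.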

Additional observations from a re-analysis of the deposited data

How the results depend on the processing

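Of 325 recomputed values, 171 came from leaving out each chromosome in turn, and 181 were differences. None of the 181 differences changed direction, and 1 had an interval that came to include 0. This was the gap in TCF1 neighbours, at -1.98 points with TCF1 scores above the median. The estimate itself was smaller there. Possible neighbours were also limited to scores above the median, which lowers neighbour shares by construction, and its effect on the difference was not tested. In the main setting the lower outside share came from members over 10 kb from open chromatin. It largely follows from that class, so the gap in TCF1 neighbours and its range below are a description. The other values were shares, medians and counts, which have no direction. Of these 35 moved, mostly outside the interval of the main setting. Leaving out 1 chromosome at a time gave -12.2 to -11.0 points for HEB, -14.4 to -12.1 for HEB near minus far, 44.2 to 57.0 for centres within 10 bp, 44.4 to 49.9 for HEB scores, -10.2 to -7.81 for TCF1 scores and -7.12 to -4.58 for TCF1 neighbours; these settings, and every setting for HEB near minus far, centres and HEB scores, were chosen after seeing the data. The number of members was 816 with DNaseI scores above the median and 165 with TCF1 scores above the median, and the outside share was 23.2% and 11.9%. It was 12.9%, 10.9% and 10.0% with no DNaseI region within 100 bp, 500 bp or 1 kb, and 20.1% when the centre, or coverage under 50%, decided. In the same order, the share within 1 kb of DNaseI was 15.2% (DNaseI scores), then 22.5% and 8.36% (gaps of 100 and 500 bp) and 50.1% (centre or coverage). The median gap was 18104 bp (DNaseI scores), 7686, 10867 and 13871 bp (the 3 gaps) and 976 bp (centre or coverage). For centre or coverage, both the share within 1 kb and the median count regions that partly overlap a DNaseI region as a gap of 0. With no DNaseI region within 1 kb, 9.12% met HEB and 12.0% had a TCF1 neighbour. Outside neighbours were 4.18% and 2.85% at 500 bp and 1 kb. With TCF1 scores above the median, TCF1 and outside neighbours were 10.3% and 3.03%. Other limits of distance or score moved shares by construction. HEB within 1 kb or 50 kb gave 8.11% and 34.6%. TCF1 neighbours within 2 kb or 50 kb gave 4.44% and 35.7%, and outside neighbours 1.93% and 11.6%. Scores above the upper quartile gave 16.4%, and DNaseI within 500 bp or 5 kb gave 26.1% and 51.0%. No paired analysis was possible because each assay had 1 sample. Depth is unknown, so a region missing from a list cannot be told from one under the calling threshold.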

Other observations

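The rule left out chromosomes X and Y, where TCF1 regions outside open chromatin were few in number but a larger share than elsewhere. On chromosomes 1 to 19, 14.8% of TCF1 regions were outside, and 6.37% of these met HEB. No difference was tested on so few regions. On X, 14 of 31 TCF1 regions shared no base with a DNaseI region, with gaps of 41 to 3529565 bp and scores of 8 to 25. Of these 14, 1 lay within 1 kb of a DNaseI region, 7 lay over 100 kb away and 4 met a HEB region. On Y, all 4 TCF1 regions were outside, 855261 to 1186153 bp from a DNaseI region, with scores of 10 to 19, and 3 of them met a HEB region.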
